A study of Mus musculus with 24 samples.

Results

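RNA of βTC3 cells that had been switched on for the miR-23b cluster and then switched off again was compared with RNA of the same line never switched on. βTC3 is a mouse insulinoma line grown from Rip-Tag2 tumours, a model of pancreatic neuroendocrine cancer in which an insulin promoter drives a viral oncogene in beta cells. The withdrawn cultures carried the plasmid PB-31 miR-23b cluster and received doxycycline (DOX) at 2 µg/ml for 7 d followed by 7 d in plain medium. The never induced cultures carried the same plasmid and spent 7 d in plain medium. The comparison held 6 of the 24 libraries of the series, 3 withdrawn and 3 without DOX, chosen by their labels alone. Set beside them were 3 libraries of the same line after 7 d of DOX, the withdrawn and no DOX libraries of a line carrying PB-31 miR-137 (6 libraries, and for 1 value its 7 d DOX libraries) and the control line carrying the PB-31 control plasmid, with 7 d DOX or no DOX and no withdrawn culture. Libraries were stranded polyA libraries from cells plated in triplicate. No culture without DOX was labelled as kept as long as the withdrawn ones, and no label gave a date, plate or run, so earlier DOX, time in culture and any batch that follows the groups cannot be told apart where withdrawn cultures are set against no DOX. Against 7 d DOX, removal of the drug, the further 7 d in culture and any batch cannot be told apart either. The labels do not say whether each line is 1 clone or a mixed population.

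In a DOX-inducible system the drug lets a transactivator switch on the inserted sequence, and removing the drug stops it. The cluster makes miR-23b, miR-27b and miR-24 from 1 primary transcript, which is cut to hairpins and then to mature miRNAs. A mature miRNA pairs through its seed with sites in 3′ UTRs, and mRNAs with such sites are destabilised, so mRNAs held down directly can recover once the miRNA has decayed. The comparison asks how far the transcriptome of the withdrawn cells stood from that of the never induced ones. The no DOX cultures stand in for the starting level below, since no library was labelled as taken before DOX. Words such as returned, recovered and overshot place separate cultures by level and name no cause.

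The mature sequences are shown because their seeds (bases 2 to 8, in capitals) set which mRNAs the cluster can pair with. Both are from RefSeq (GRCm38.p6, chromosome 13, plus strand), and the 2 seeds differ, so the miRNAs pair with different sites.
mmu-miR-27b-3p: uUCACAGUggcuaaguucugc
mmu-miR-24-3p: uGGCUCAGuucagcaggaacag
The first lies at chr13:63300760-63300780 and the second at chr13:63301251-63301272, inside the host gene 2010111I01Rik (ENSMUSG00000021458, chr13:62964893-63326096, plus strand). The miR-23b-3p sequence was not used here.

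The hairpins of the cluster were back at or below their starting level in the withdrawn cultures. Mir27b, the hairpin of miR-27b, had 7, 12 and 8 counts in the 3 no DOX libraries, 1703, 2008 and 1379 after 7 d of DOX and 4, 2 and 0 after withdrawal. Mir24-1 had 11, 12 and 12 counts without DOX, 2422, 2153 and 1619 with it and 5, 6 and 0 after withdrawal. Mir23b had 1, 5 and 3 counts without DOX, 1201, 1111 and 850 with it and 1, 0 and 1 after withdrawal. For Mir27b and Mir24-1 each withdrawn library lay below every no DOX library, and edgeR's quasi-likelihood test called both lower (adjusted p = 0.00426 and 0.0169), while Mir23b was not called (adjusted p = 0.0907). Without withdrawn replicate 3, which had 0 counts at both, Mir24-1 was not called (log2 fold change -1.02). In CPM, the counts scaled to a common library total, Mir27b stood at 0.481 ± 0.0597 without DOX, 85.5 ± 5.35 with DOX and 0.111 ± 0.106 after withdrawal (SD, n = 3). Mir24-1 stood at 0.641 ± 0.0794, 104 ± 8.5 and 0.211 ± 0.191 CPM in the same order. Between no DOX and withdrawn libraries these values rest on 12 counts or fewer per library. With these 6 libraries alone 1 of the 5 loci of the cluster was called. On the TPM scale 0 of the 5 were called, but that scale could not call Mir27b, Mir24-1 or Mir3074-1. Their log2 change there was 0, with no difference between the groups to test. Mir3074-1, annotated on the opposite strand of Mir24-1, had 16, 13 and 11 counts without DOX and 1, 5 and 4 after withdrawal (adjusted p = 0.00363 by the same test), and had 0 counts in each no DOX and withdrawn library of the miR-137 line. With 7 d DOX Mir3074-1 had 5, 10 and 12 counts, beside 2422, 2153 and 1619 for Mir24-1. The many Mir24-1 reads with DOX were thus not also counted for the opposite strand. The labels give no strand setting for the counting, and whether a few reads of this overlapping pair were mixed was not tested. The host gene stood at 15.5 ± 1.44 CPM without DOX and 18.0 ± 2.66 after withdrawal and was not called (adjusted p = 0.0672). Reads from the inserted copy and from the chromosomal locus cannot be told apart, and the mature miRNAs themselves, which carry no polyA tail, were not measured.

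**Figure D1:**
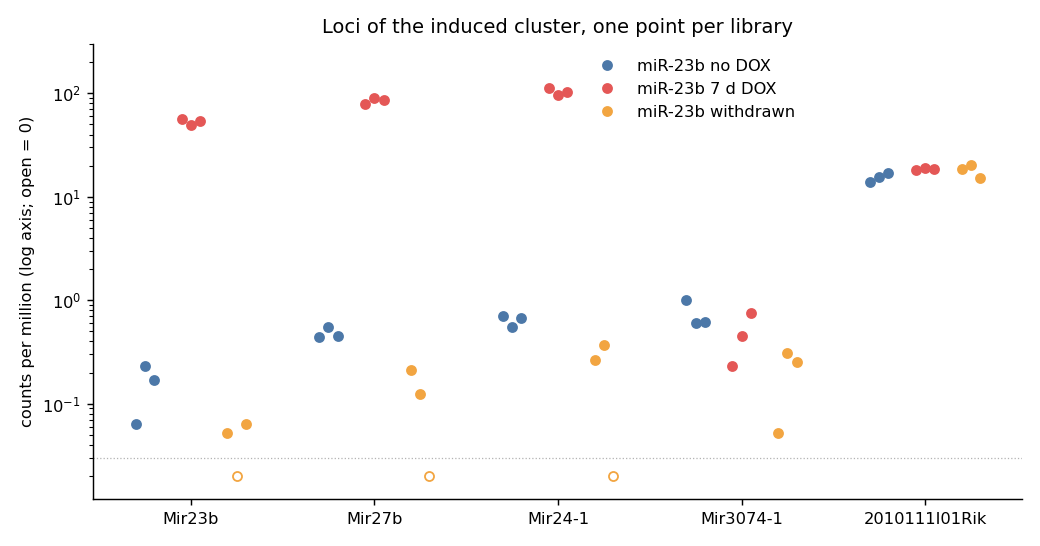
CPM on a log axis for 3 hairpins of the cluster, Mir3074-1 and the host gene 2010111I01Rik, with 1 point per library and open points for 0 counts. The withdrawn libraries of Mir23b, Mir27b and Mir24-1 lie far below those with 7 d DOX and within or below the range without DOX, while the withdrawn libraries of the host gene overlap both other groups.

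Each of the 6 libraries held 15759849 to 21804880 gene counts. Replicates differed by more than sampling noise (chi-square over degrees of freedom 1.53 to 2.53), so none was merged. Reads assigned to no gene made up 9.62% to 9.84% of the total without DOX and 10.5% to 10.6% after withdrawal. That total includes alignments to more than 1 place. Mitochondrially encoded genes took 2.51% to 2.62% of gene counts without DOX and 2.10% to 2.26% after withdrawal. Of 13 such genes listed, 6 had 0 counts in all 6 libraries. Beta cell markers were present in every library: 8 of 8 were tested, with summed levels of 13503 to 13619 CPM without DOX and 15678 to 16089.6 after withdrawal. Of these 8 genes 2 were called higher and 3 lower, with a median log2 fold change of 0.008. Markers of other cells were low and somewhat higher after withdrawal. The 10 fibroblast genes summed to 2.31 to 2.57 without DOX and 2.79 to 4.21 after withdrawal (9 under 1 CPM in all 6 libraries, Col3a1, Dcn and Fap at 0), and the 13 leukocyte genes to 2.03 to 2.25 without DOX and 3.49 to 3.96 after withdrawal (12 under 1 CPM, Cd3e, Cd8a and Tyrobp at 0). The 9 endothelial genes summed to 16.4 to 17.8 without DOX and 18.3 to 19.8 after withdrawal (7 under 1 CPM, Cldn5 at 0). The 13 exocrine genes summed to 9.54 to 10.3 without DOX and 14.3 to 15.8 after withdrawal (10 under 1 CPM, Amy2a5, Cela3b, Cpa1, Prss1, Prss2 and Ptf1a at 0), most of it Bhlha15, at 7.56 and 10.3 CPM. Of those that passed the filter on low counts, Col1a1, Cd68, 1 of 4 endothelial and 3 of 3 exocrine genes were called higher, and the part of such cells in the results below was not tested. In principal components of the line's 9 libraries, the first (49.8% of the variance) placed the no DOX libraries at -27.1 to -26.3, the withdrawn at -9.93 to -7.77 and those with DOX at 34.8 to 36.5. The second (23.1%) set the withdrawn libraries apart, at -24.9 to -23.7 against 16 to 18.3 without DOX and 6.96 to 7.43 with DOX.

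The withdrawn cells differed in expression from the never induced cells. Immediate early, sterol synthesis and glycolysis genes were mostly lower, while Gcg, Sct, Ins2 and Pdzk1 were higher. Of 14866 genes tested across all 24 libraries, 5916 (39.8%) passed edgeR's quasi-likelihood test at an adjusted p below 0.05, 2858 higher (19.2%) and 3058 lower (20.6%). Counts of list members called in this contrast, given below, are to be read against these 2 shares. The called changes had a median of 0.27 in absolute log2 units, and 486 genes (3.27%) were called and at least 2-fold apart, 162 higher and 324 lower. For comparison, 57.4% of genes were called between 7 d DOX and no DOX in this line (28.8% higher, 28.6% lower) and 52.2% between withdrawal and 7 d DOX (26.4% higher, 25.8% lower). These 3 contrasts share libraries. Levels below are CPM of TMM-scaled libraries, with n = 3 per group, and in bulk RNA fewer cells of a kind and less RNA per cell cannot be told apart.

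The largest fall was in Blnk, an adaptor of B cell receptor signalling. It stood at 25.4, 31.0 and 27.6 CPM without DOX and 5.70, 5.21 and 4.26 after withdrawal (log2 fold change -2.47, SE 0.11, adjusted p = 1.19e-20), beside 3.24, 2.88 and 2.71 with 7 d DOX. The withdrawn libraries thus lay closer to those still on DOX than to the starting level. Igfbp2, which binds insulin-like growth factors, went from 18.3, 18.1 and 19.5 to 4.43, 3.97 and 5.28 (log2 fold change -2.03, SE 0.10). Jcad, an endothelial junction gene, fell by 2.14 on the log2 scale, from 18.1, 21.6 and 17.4 to 4.91, 3.47 and 4.58. Itpr2, an inositol trisphosphate receptor that releases calcium, went from 11.1, 9.23 and 11 to 3.32, 2.91 and 2.54, with a log2 fold change of -1.81. Chchd10, a protein of the mitochondrial intermembrane space, was at 46.1 and 14.1 CPM (-1.71), and Tmod1, which caps actin filaments, at 19.1 and 5.50 (-1.80). Enpp3 (-1.73) and the phospholipase gene Plcg2 (-1.68) were the remaining ones of the 15 largest falls outside the lists below. All of these had groups that did not overlap, which the rule for naming them required.

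Among the rises, Pdzk1, a scaffold for membrane transporters, was first. It stood at 4.40, 3.82 and 4.58 CPM without DOX and 22.6, 22.8 and 21.3 after withdrawal (log2 fold change 2.39, SE 0.10, adjusted p = 3.15e-21). With 7 d DOX it had been at 5.57, 5.45 and 6.35, so its level was far higher after withdrawal than during induction (log2 fold change 1.95, adjusted p = 3.97e-20 by the same test). Fgd4, a guanine nucleotide exchange factor for Cdc42, did the same, with 30.2, 28.7 and 26.5 without DOX, 38.4, 37.3 and 38.1 with it and 70.3, 71.7 and 64.7 after withdrawal. Prodh2, which oxidises hydroxyproline, stood at 9.05, 7.70 and 8.30 without DOX, 5.02, 4.79 and 5.98 with it and 20.8, 19.8 and 22.9 after withdrawal, so it crossed its starting level. Meltf, an iron-binding melanotransferrin, and Iyd, an iodotyrosine deiodinase, likewise stood below their no DOX means with DOX (1.90 against 2.88 and 4.30 against 4.85 CPM) and above them after withdrawal (6.91 and 11.6). Col11a2, a collagen chain, was at 11.4, 11.6 and 12.7 without DOX, 49.5, 51.9 and 54.2 with it and 32.0, 31.1 and 30.7 after withdrawal, a level between the other 2. Igfbp4, another binding protein of insulin-like growth factors, rose by 1.35 on the log2 scale while Igfbp2 fell. Gpx2, a glutathione peroxidase (1.68), Samd5 (1.56), Pipox, which oxidises pipecolic acid (1.45), and Hapln1, a linker of hyaluronan matrix (1.35), reached 5.88, 5.73, 6.75 and 6.46 CPM. Serpina1a (1.65) and Serpina1b (1.48), copies of the antitrypsin gene, share near-identical sequence, and reads aligned to more than 1 place were not counted, so their split is uncertain.

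**Figure D2:**
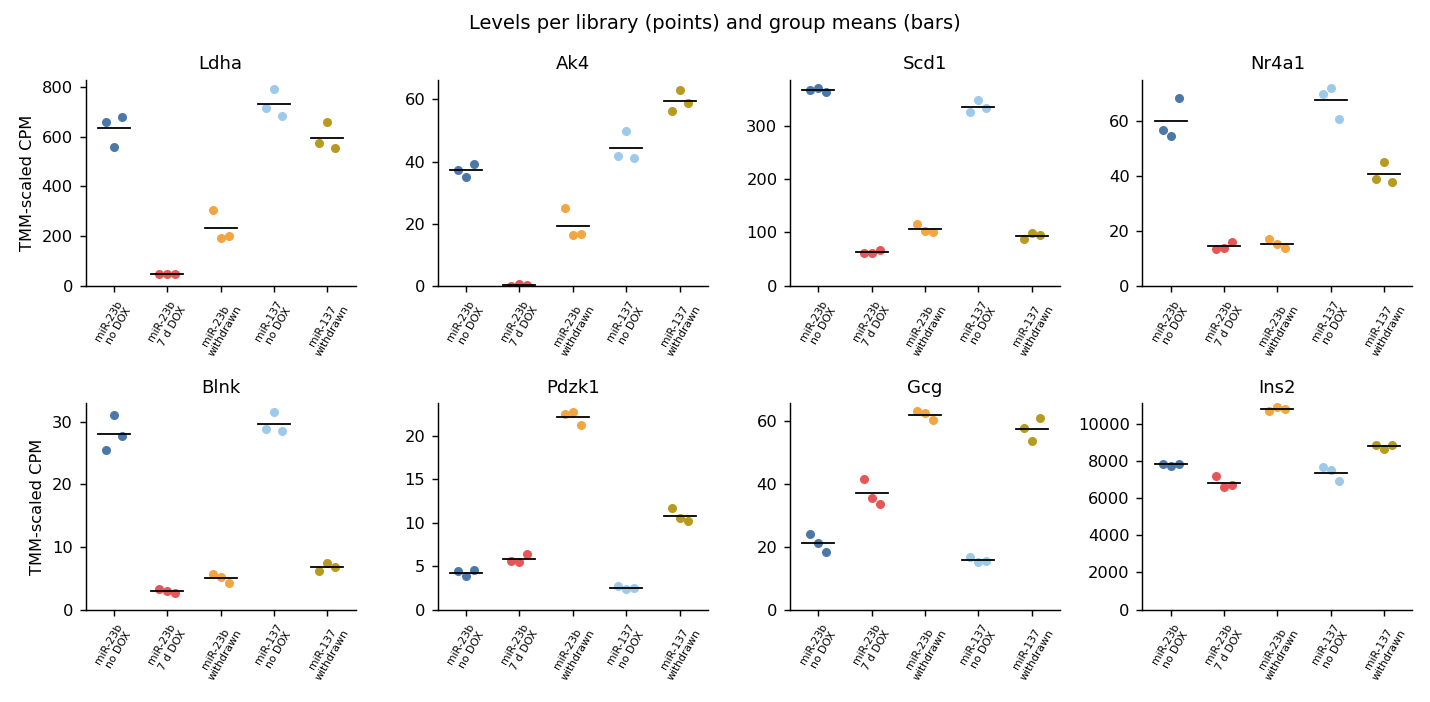
Levels of 8 genes in CPM of TMM-scaled libraries on linear axes from 0, with 1 point per library and a bar at each group mean, for 3 groups of the miR-23b line and 2 of the miR-137 line. Ldha and Ak4 are lower after withdrawal in the miR-23b line (means 232 and 19.4 CPM) than in the miR-137 line (596 and 59.4), while Blnk, Scd1, Pdzk1 and Gcg went the same way in both.

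Immediate early genes, whose transcription follows membrane depolarisation and growth factor signals within minutes, were mostly lower. Of 31 tested 21 fell and 2 rose, with a median of -0.44 against 0.00 over all genes. Nr4a1, an orphan nuclear receptor, was at 56.8, 54.7 and 68.5 CPM without DOX and 17.1, 15.4 and 13.7 after withdrawal (log2 fold change -1.95, SE 0.09, adjusted p = 5.22e-20). With DOX it was at 13.4, 13.9 and 15.9, which overlaps the withdrawn libraries, and the test did not call a difference between the 2 (adjusted p = 0.384). Npas4, a factor induced by calcium entry, stood at 40.3, 38.8 and 47.4 and 13.1, 10.4 and 11.6, and was likewise not called against 7 d DOX (9.92 CPM, adjusted p = 0.0934). Fosb, by contrast, recovered in part, from 4.25, 3.57 and 4.13 with DOX to 15.1, 9.73 and 10.6 after withdrawal, against 37.0, 42.4 and 46.6 without DOX. Egr2 went from 1.14, 1.22 and 1.17 with DOX to 3.96, 3.10 and 3.05, against 9.18, 13.0 and 14.4 at the start, and Fos and Egr1 stood at 71.3% and 80.0% of their no DOX means after 21.7% and 31.3% with DOX. Atf3, a stress-induced factor, was lower after withdrawal (3.85, 4.15 and 3.37) than with DOX (5.75, 5.36 and 5.0) or without (11.6, 11.6 and 16.4). The rises were in Crem, a modulator of the cAMP response, and Nr4a2 (0.35 and 0.22), the second not called without no DOX replicate 2 (0.18). Fos and Egr1 were chosen after their values were seen. How the cultures were handled before harvest is not stated, and its part in these levels was not tested. After withdrawal in the miR-137 line 18 of the list fell and 4 rose (median -0.40), beside 21.7% lower and 21.6% higher over all genes there. With 7 d DOX in the control line 19 fell and 1 rose (median -0.43), beside 19.3% lower and 18.5% higher over all genes there.

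Genes that make cholesterol and take it up, which the factor SREBP2 drives when membranes run low in sterol, stayed below the starting level together. Of 25 tested 23 fell and 0 rose, with a median of -0.55; Mvk (-0.10, adjusted p = 0.144) and Ebp (0.06, adjusted p = 0.325) did not pass edgeR's quasi-likelihood test. Insig1, which holds the SREBP complex in the endoplasmic reticulum, stood at 279, 292 and 292 CPM without DOX, 39.5, 39.8 and 42.1 with it and 125, 116 and 109 after withdrawal (log2 fold change -1.30, SE 0.04, adjusted p = 2.57e-24). The farnesyl diphosphate synthase gene Fdps stood at 27.0, 26.7 and 27.3 without DOX and 13.5, 14.1 and 14.1 after withdrawal (log2 fold change -0.96). With 7 d DOX the list had 24 members lower (median -0.97), and 22 were higher after withdrawal than with DOX. After withdrawal most of the list thus stood between its levels with DOX and without. The control line, which holds no miRNA insert, also had 24 of 25 lower with 7 d DOX (median -0.72), where 37.8% of all genes were called (18.5% higher, 19.3% lower).

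Fatty acid synthesis genes moved the same way, with 15 of 19 lower and 2 higher (median -0.43). Scd1, a desaturase that makes oleate, stood at 367, 371 and 363 CPM without DOX and 116, 102 and 101 after withdrawal (log2 fold change -1.78, SE 0.05, adjusted p = 5.12e-26). The related Scd2 went from 2656, 2637 and 2624 to 1254, 1190.4 and 1173 (-1.13), after 493, 496 and 475 with DOX. The elongase gene Elovl6 fell by 0.81 on the log2 scale. The rises were in Acly, which makes cytosolic acetyl-CoA (2959 to 3509 CPM), and in the carbohydrate response factor gene Mlxipl (0.17, and 0.14 and not called without withdrawn replicate 3). After withdrawal in the miR-137 line 15 of the list fell and 2 rose (21.7% and 21.6% over all genes there). With 7 d DOX in the control line 14 fell and 1 rose (19.3% and 18.5% over all genes there).

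Glycolysis and hypoxia-inducible genes had the lowest median of the 34 lists with DOX and were back only in part. These enzymes break glucose down to pyruvate and lactate, and many are driven by hypoxia-inducible factor, which binds the letters ACGTG. Of 36 tested 22 were lower than without DOX and 3 higher, with a median of -0.47. With 7 d DOX 31 had been lower. Of those, 27 were higher after withdrawal than with DOX, 22 were still lower than without DOX and 19 were both. Their median level was 44.2% of no DOX with 7 d DOX (0.867% to 83.5%) and 63.5% after withdrawal (36.7% to 173%). The control line, without a miRNA insert, also had 21 of 36 lower and 4 higher with 7 d DOX (median -0.22; 19.3% lower and 18.5% higher over all genes there), with Ak4 at -0.65, Aldoa at -0.66 and Ldha at -0.46. The difference between these responses to DOX was not tested. In the control line with DOX replicate 1 was the lowest of its group in 32 of 36, with summed levels of 5000 against 6061 and 6105 CPM.

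Ldha, which turns pyruvate into lactate, had the lowest of these shares. It stood at 661, 559 and 679.5 CPM without DOX, 45.7, 46.2 and 47.6 with DOX and 304, 193 and 199.96 after withdrawal (log2 fold change -1.44, SE 0.12, adjusted p = 1.53e-12). The withdrawn libraries lay above all of those with DOX and below all of those without, and withdrawn replicate 1 was the highest of its group. Ak4, a mitochondrial adenylate kinase, stood at 37.2, 34.9 and 39.3 without DOX, 0.0913, 0.567 and 0.308 with it and 24.9, 16.5 and 16.7 after withdrawal (log2 fold change -0.92, SE 0.13, adjusted p = 1.6e-07). From under 1 CPM it had thus returned to 52.1% of its starting mean, and again replicate 1 was highest. Aldoa, aldolase, went from 805, 729.7 and 799 without DOX to 375, 288 and 303 after withdrawal (log2 fold change -1.27), after 184, 179.7 and 183 with DOX. Egln3, a prolyl hydroxylase that marks hypoxia-inducible factor for decay, went from 6.79, 8.26 and 7.44 to 4.27, 3.35 and 3.18 (-1.05). Of 4 genes chosen after their values were seen, the triose phosphate isomerase gene Tpi1 was at 54.7% of no DOX, the lactate exporter gene Slc16a3 at 56.3%, the mitophagy receptor gene Bnip3 at 61.3% and the pyruvate dehydrogenase kinase gene Pdk1 at 63.7%. With DOX these had been at 24.6%, 16.9%, 18.2% and 26.7%.

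Not every member stayed low. Slc2a2, the GLUT2 glucose transporter of beta cells, fell to 1.83, 1.57 and 2.16 CPM with DOX and stood at 9.34, 8.55 and 9.73 after withdrawal against 9.76, 8.58 and 9.04 without DOX (log2 fold change 0.02, SE 0.10, not called). Slc2a1, which encodes GLUT1, was at 97.2% after 53.9% with DOX. Both were chosen after their values were seen. Ankrd37 and Pfkfb3, which controls fructose 2,6-bisphosphate, overshot, to 173% and 155% of no DOX (0.83 and 0.63). Gapdh was called higher (0.37) at 10.5 and 13.7 CPM, levels that leave out reads aligned to its near-identical copies, and the deposited TPM gave the opposite sign, so its direction is uncertain. The members moved as a block between replicates as well: withdrawn replicate 1 was the highest of its group in 32 of 36, with summed levels of 4725 against 4019 and 4102 CPM. Without DOX the sums were 6666, 6128 and 6727, and without withdrawn replicate 1 the count of lower genes was 23.

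The promoters of Ldha and Bnip3 are printed because both genes fell and recovered in part and because the letters for hypoxia-inducible factor lie in them. Capitals mark ACGTG on either strand (CACGT when read from the other), and where the 2 overlap they form CACGTG, also the letters of an E-box. Each run covers 250 bases before to 50 after a RefSeq start (GRCm38.p6), 5′ to 3′ on the gene's strand, chr7:46845554-46845853 (plus) for Ldha and chr7:138909457-138909756 (minus) for Bnip3.
Ldha: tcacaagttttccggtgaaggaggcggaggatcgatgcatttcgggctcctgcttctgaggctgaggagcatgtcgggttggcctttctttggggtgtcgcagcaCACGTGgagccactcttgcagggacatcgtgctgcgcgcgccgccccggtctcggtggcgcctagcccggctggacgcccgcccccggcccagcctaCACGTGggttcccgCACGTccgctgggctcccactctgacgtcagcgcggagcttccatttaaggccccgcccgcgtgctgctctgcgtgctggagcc
Bnip3: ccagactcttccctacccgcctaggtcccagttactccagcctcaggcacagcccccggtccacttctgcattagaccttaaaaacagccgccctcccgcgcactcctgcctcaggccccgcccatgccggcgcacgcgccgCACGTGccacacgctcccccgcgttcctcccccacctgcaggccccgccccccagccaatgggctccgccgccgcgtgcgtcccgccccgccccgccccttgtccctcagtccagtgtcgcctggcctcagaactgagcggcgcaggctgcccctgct
A second Ldha start in the same table holds no ACGTG. Of 48 promoters matched to 31 of the list's genes 24 held ACGTG, against 19.6% of all 32851 promoters of the same length and 24.8% of the 13904 promoters of genes tested here. CACGTG was in 10.4%, against 7.15% and 9.62%. The list was made of glycolysis and hypoxia-inducible genes, so a raised share of ACGTG could follow from how it was chosen. The starts of Tpi1 and Pdk1, which stood below no DOX after withdrawal, held no ACGTG. Those of Slc2a1, Ankrd37 and Pfkfb3, which stood near or above no DOX, did. Whether the letters go with the change was not tested. These are matches of letters, and no binding was measured.

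In the miR-137 line, which had the same 2 treatments and shares no library with the miR-23b line, the list was centred near its starting level after withdrawal. There 13 were lower and 14 higher (median 0.04), and the 31 genes above stood at a median of 101% of no DOX. The difference between the lines was tested directly. 25 of 36 were lower in the miR-23b line's response and 0 higher (median -0.56), where 4.02% of all genes were called (1.76% higher, 2.25% lower). In the miR-137 line the members also moved as a block between replicates. Replicate 2 was the highest of its group in 30 of 36, both without DOX and after withdrawal. The calls of single members are thus not independent of each other. Ak4 stood at 41.9, 49.9 and 41.3 CPM without DOX and 56.3, 63.2 and 58.8 after withdrawal in the miR-137 line, so it was called higher in that line and lower in the miR-23b line (log2 difference -1.33, SE 0.16, adjusted p = 1.25e-06 by edgeR's quasi-likelihood test). Ldha went from 715, 792 and 684 to 576, 658 and 555 there (difference -1.15, SE 0.17), and Egln3 from 9.60, 9.60 and 8.58 to 9.16, 11.4 and 9.43 (difference -1.16). P4ha1, a collagen prolyl hydroxylase chosen after its values were seen, stood at 90.7% of no DOX in the miR-23b line and 159% in the miR-137 line. The 2 lines also differed in level in separate cultures with 7 d DOX, and the part of this in the difference after withdrawal was not tested. With 7 d DOX the list summed to 2752 to 2789 CPM in the miR-23b line and 5633 to 6419 in the miR-137 line.

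**Figure D3:**
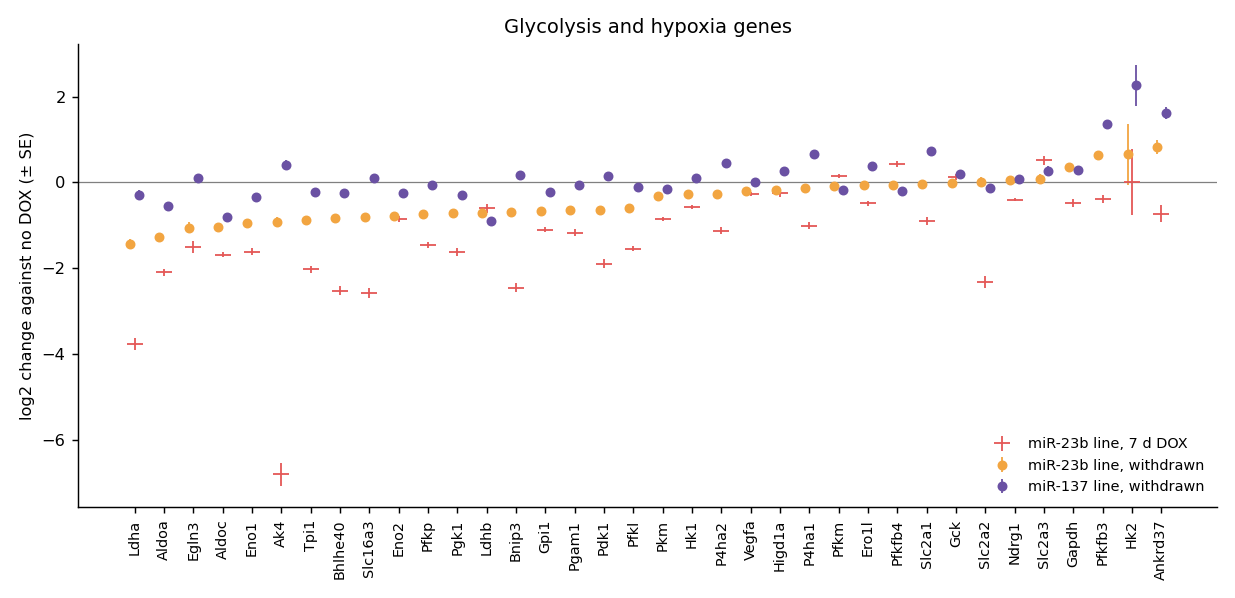
Log2 change against no DOX (± SE) of the 36 glycolysis and hypoxia genes tested, for the miR-23b line with 7 d DOX (red bars), the miR-23b line after withdrawal (orange) and the miR-137 line after withdrawal (purple). For Ldha the 3 values are -3.77, -1.44 and -0.29, and for Ak4 -6.79, -0.92 and 0.41.

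Insulin mRNA ended above its starting level. Ins2, 1 of the 2 mouse insulin genes, stood at 7873, 7773 and 7870.5 CPM without DOX, 7199, 6609 and 6708 with DOX and 10704, 10910.5 and 10830.1 after withdrawal (log2 fold change 0.46, SE 0.03, adjusted p = 5.72e-14). Ins1 stood at 2033, 1846 and 1944 without DOX, 1071, 1070.1 and 1049.8 with it and 2174, 2306 and 2399 after withdrawal (log2 fold change 0.24, SE 0.04). In both, each withdrawn library was above every library without DOX, although the near-identical copies make the split of reads between them uncertain. The amylin gene Iapp, which is secreted with insulin, went the other way, from 2933, 3083 and 2997 to 2063, 1963 and 1984 (-0.58). The granin gene Scg2 (-0.65) and the neuropeptide precursor gene Vgf (-0.53) also fell, while Cpe, which trims prohormones (0.39), and the cation channel gene Trpm5 (0.45) rose. Over 37 insulin secretion genes 9 rose and 18 fell (median -0.09), beside 19.2% higher and 20.6% lower over all genes. Of genes chosen after their values were seen, the incretin receptor gene Glp1r stood at 98.2%, the fatty acid receptor gene Ffar1 at 96.4% and the activin receptor gene Acvr1c at 91.4% of no DOX, after 70.2%, 63.0% and 41.9% with DOX.

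Of 18 beta cell transcription factor genes tested 9 fell and 3 rose, beside 20.6% lower and 19.2% higher over all genes. Nkx6-1 went from 330.4 to 252 CPM (-0.39), Pdx1 from 326 to 267 (-0.29), Rfx6 from 136 to 109 (-0.32) and Mnx1 from 7.05, 6.44 and 6.47 to 3.06, 3.29 and 3.94 (-0.96). Hnf4a, a nuclear receptor active in liver and islets, rose from 91.7, 84.1 and 86.6 to 117, 124 and 129.6 (0.50), and Isl1 rose by 0.14.

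Precursors of other hormones were among the 15 largest rises. Gcg, proglucagon of alpha cells, stood at 24.2, 21.1 and 18.3 CPM without DOX, 41.6, 35.5 and 33.7 with it and 63.2, 62.5 and 60.2 after withdrawal (log2 fold change 1.55, SE 0.08, adjusted p = 1.5e-18). Sct, secretin, stood at 12.5, 11.7 and 12.9, 74.2, 69.0 and 66.1 and 36.9, 40.8 and 38.4 in the same order (1.65 after withdrawal). Gcg was thus highest after withdrawal, and secretin highest with DOX. Prodynorphin (Pdyn) rose by 0.72, while Gip, an incretin, and neuropeptide Y (Npy) fell by 0.40 and 0.30 on the log2 scale. Of 12 members tested 4 rose and 3 fell, beside 19.2% higher and 20.6% lower over all genes. In the control line with 7 d DOX Gcg and Sct were higher by 1.38 and 1.69 than without, so a rise in these 2 was also present without a miRNA insert.

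Genes of cell division were higher more often than lower, by small amounts. Of 39 mitosis and G2/M genes 22 rose and 2 fell (median 0.11), with the cyclin gene Ccnf at 0.33, the spindle gene Dlgap5 at 0.31, and the kinetochore gene Knl1 at 0.27. The falls were in Cdc20, an activator of the anaphase-promoting complex, and the kinase gene Plk1, at -0.13 and -0.11, and Plk1 was not called without no DOX replicate 3 (-0.09) or withdrawn replicate 1 (-0.07). Of 38 DNA replication and G1/S genes 17 rose and 8 fell, with Mcm10, Cdc6 and Mcm5, which load and activate the replicative helicase, at 0.33, 0.31 and 0.25 and the histone chaperone gene Chaf1b at -0.37. With any 1 no DOX library, or withdrawn replicate 2 or 3, left out the G1/S falls numbered 5. After withdrawal in the miR-137 line 31 mitosis genes rose and 2 fell, and 19 G1/S genes rose and 7 fell. Over all genes there 21.6% rose and 21.7% fell. With 7 d DOX in the control line 23 mitosis genes rose and 2 fell, and 20 G1/S genes rose and 6 fell. Over all genes there 18.5% rose and 19.3% fell. Among p53 targets in the withdrawn miR-23b line 13 of 29 fell and 1 rose. Btg2, an antiproliferative gene that is also immediate early, went from 86.5, 84.4 and 103 to 47.7, 45.5 and 46.6 CPM (-0.97), Perp fell by 0.66 and Plk3 by 0.65 on the log2 scale. Phlda3, a p53 target that restrains AKT, had risen with DOX to 8.31, 8.54 and 9.01 CPM and was back at 0.791, 0.682 and 0.70 against 0.776, 0.70 and 0.572 without DOX, 2 groups that overlap. Men1, the menin tumour suppressor gene of neuroendocrine tumours, stood at 130.4, 135 and 136 without DOX, 102, 99.5 and 101 with it and 121, 122 and 127 after withdrawal (-0.12, SE 0.03).

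Genes of protein folding in the endoplasmic reticulum were mostly higher. Of 25 genes 16 rose and 4 fell, with the disulfide isomerase genes Pdia4 (133, 120.2 and 124 to 197, 187 and 189 CPM, 0.60) and Pdia6 (0.37) and the BiP gene Hspa5 (0.33) up and Sel1l, Derl1 and Herpud1, which act in degradation of misfolded protein, at -0.18, -0.17 and -0.15. ATF4 targets, which supply amino acids and charge tRNAs under shortage, were mostly lower, with 26 of 34 down and 2 up (median -0.28). The cystine transporter gene Slc7a11 went from 15.3, 16.2 and 13.6 to 7.39, 7.5 and 6.49 (-1.08), Atf5 from 344, 379.9 and 338 to 200.16, 205 and 213 (-0.78) and the glycine transporter gene Slc6a9 fell by 0.76, while the proline synthesis gene Pycr1 and the folate enzyme gene Mthfd2 rose by 0.31 and 0.10. Mthfd2 was not called without no DOX replicate 2 (0.07) or withdrawn replicate 1 (0.08). Of 18 heat shock genes 7 rose, led by Hspa8 (0.43), and 3 fell, led by the mitochondrial chaperone gene Hspa9 (-0.33). Over all genes 19.2% were higher and 20.6% lower. After withdrawal in the miR-137 line 19 folding genes rose and 3 fell, and 17 ATF4 targets fell and 4 rose. Over all genes there 21.6% were higher and 21.7% lower. With 7 d DOX in the control line 17 folding genes rose and 2 fell, and 25 ATF4 targets fell and 1 rose. Over all genes there 18.5% were higher and 19.3% lower.

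Interferon and MHC class I genes had 15 of 38 members lower and 4 higher (median -0.22). B2m, the light chain of MHC class I, stood at 61.3, 67.4 and 66.1 CPM without DOX, 49.5, 48.5 and 47.2 with it and 28.8, 25.4 and 26.3 after withdrawal (log2 fold change -1.28, SE 0.06, adjusted p = 2.23e-20), so it was lower after withdrawal than during induction. Oas2, a sensor of double-stranded RNA, fell by 1.18 and Nlrc5, the MHC class I transactivator gene, by 0.76 on the log2 scale, while the immunoproteasome genes Psmb8 and Psmb9 rose by 0.28 and 0.26. Without no DOX replicate 1 or 3 the rises of the list numbered 2, and Psmb9 was not called without either of these (0.21 and 0.24) or withdrawn replicate 3 (0.19).

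Of 7 mitochondrially encoded genes tested 6 were lower and 0 higher, with mt-Nd2 at -0.46, mt-Nd1 at -0.39 and mt-Nd5 at -0.27, beside the lower mitochondrial share of counts given above. The other 6 of the list's 13, mt-Atp6, mt-Atp8, mt-Co2, mt-Co3, mt-Nd3 and mt-Nd4l, had 0 counts in all 6 libraries. Reads aligned to more than 1 place were not counted, and whether this emptied them was not tested. These values are thus no full measure of mitochondrial RNA. Of 55 nuclear respiratory chain genes 20 fell, led by Cox5a (-0.46), Ndufa6 (-0.33) and Uqcrq (-0.31), and 3 rose (0 without no DOX replicate 1 or withdrawn replicate 1, and 1 without replicate 2 of either group). Mitochondrial ribosome genes had 5 lower and 4 higher of 55 (2 lower without no DOX replicate 2 and 3 without withdrawn replicate 3). Over all genes 20.6% were lower and 19.2% higher, and this list and the cytosolic ribosomal one below lay under both shares. Mitochondrial biogenesis genes had 5 lower and 4 higher of 20 (2 higher without no DOX replicate 2), with Ppargc1a, the PGC-1α coactivator gene, at 11.5, 13.6 and 13.1 CPM without DOX and 7.81, 6.51 and 5.66 after withdrawal (-0.93). The estrogen-related receptor genes Esrrg and Esrra fell by 0.78 and 0.50. Cytosolic ribosomal protein genes had 6 higher and 1 lower of 46 (3 higher without withdrawn replicate 1, and 2 lower without no DOX or withdrawn replicate 3), and NRF2 and glutathione genes 8 higher and 8 lower of 28, with Gpx1 at 0.90 and Nqo1 at -0.57. Clock genes had 10 of 18 lower, with Bhlhe40 at -0.83 and Nr1d1 at -0.29, and Per2 higher at 0.51. Without no DOX replicate 3 Nr1d1 was not called (-0.23) and the count of lower clock genes was 6, and on the TPM scale 4.

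The remaining lists had calls in both directions, at counts to be read against 19.2% higher and 20.6% lower over all genes. TGF-β, activin and BMP genes had 7 higher and 7 lower of 34, close to those shares, with Smad3 at 0.64 and the ligand gene Gdf11 at -0.77, and without no DOX replicate 1 its falls numbered 4. NOTCH genes had 6 higher and 3 lower of 24, led by Lfng, a glycosyltransferase that tunes NOTCH receptors, from 7.63, 8.21 and 9.78 to 17.2, 18.4 and 18.3 CPM (1.07). The NOTCH falls numbered 0 without withdrawn replicate 1 and 1 without no DOX replicate 1 or withdrawn replicate 2. Islet progenitor genes had 3 higher and 1 lower of 16, with Id1 (0.46) and Prom1 (0.46) up and Cd24a (-0.57) down. Epithelial adhesion genes had 3 higher and 1 lower of 8, led by the keratin gene Krt8 (0.51), and mesenchymal and matrix genes 2 higher and 3 lower of 10, with Col4a1 at -0.73 and Itgav at -0.50.

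**Figure D4:**
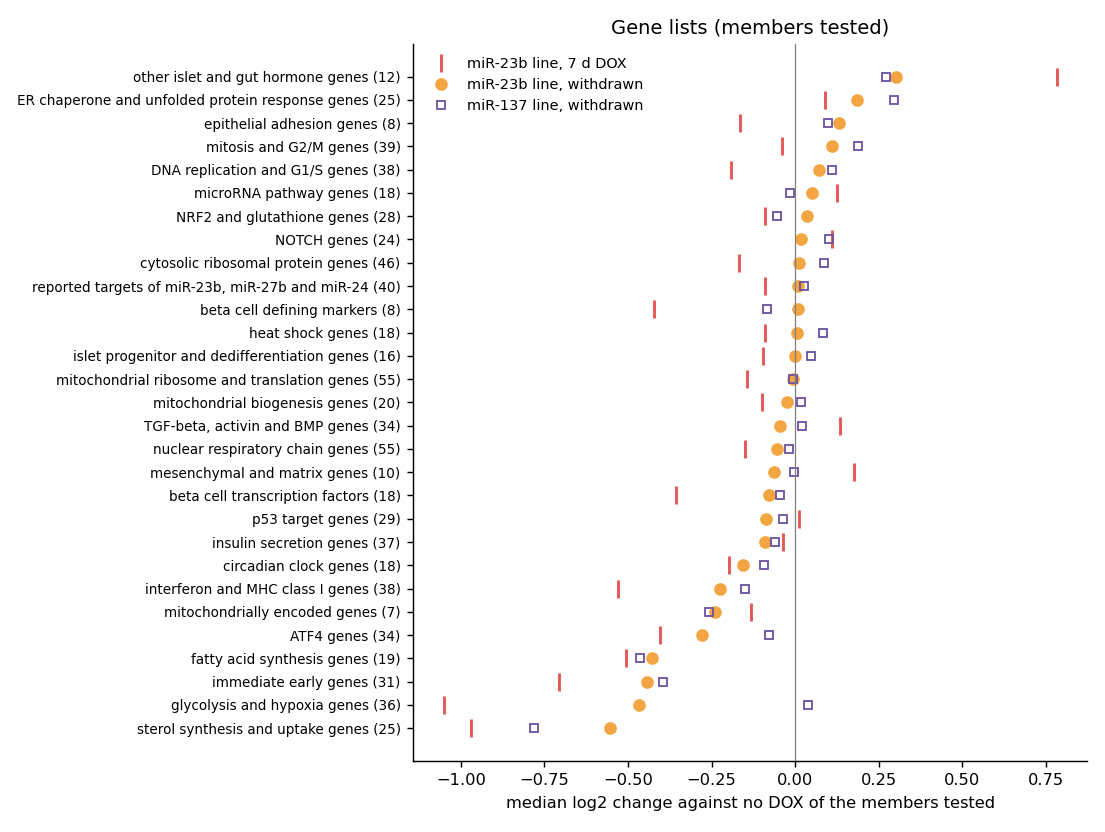
Median log2 change against no DOX of the members tested in each gene list (number tested in brackets), for the miR-23b line with 7 d DOX (red ticks), the miR-23b line after withdrawal (orange points) and the miR-137 line after withdrawal (open squares). The glycolysis and hypoxia list shows the widest gap between the withdrawn lines among the lists drawn, at -0.47 and 0.04, while the sterol list is low in both, at -0.55 and -0.78.

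Genes with seed sites for the cluster had median changes near 0 after withdrawal. Of 12956 tested genes with an annotated 3′ UTR, 2522 (19.5%) held a site for miR-27b-3p and 2788 (21.5%) for miR-24-3p, counting matches to bases 2 to 8 of the miRNA. Their median changes against no DOX were 0.002 and -0.003 on the log2 scale, against -0.001 over all genes with a 3′ UTR. Of them 23.5% and 23.9% were lower against 22.4% of all, and 22.8% and 19.9% higher against 20.3%. Among the 934 genes with the longer miR-27b-3p site that ends in A, 36.8% were lower with 7 d DOX against 30.2% of all. With DOX 26.2% of these were higher, also against 30.2%. After withdrawal 24.1% were lower against 22.4% of all, and 23.4% higher against 20.3%. Their median was -0.02 with DOX and 0.04 between withdrawal and DOX. Among the 1253 genes with the corresponding miR-24-3p site, 31.7% were lower with DOX and 21.9% after withdrawal, beside 30.2% and 22.4% of all, with a median of 0.002 with DOX. Higher were 28.7% with DOX and 20.1% after withdrawal, beside 30.2% and 20.3% of all. Of 40 genes reported as targets of the 3 miRNAs 11 rose and 9 fell (median 0.01), beside 19.2% higher and 20.6% lower over all genes. Sema6a, a semaphorin, was the lowest of these, from 22.6, 24.2 and 23.4 to 12.5, 12.7 and 12.2 CPM (-0.91), and Trib3, a pseudokinase that also belongs to the ATF4 targets, fell by 0.54 on the log2 scale. The activin receptor gene Acvr1b rose by 0.30. The miRNA machinery had 5 of 18 genes higher and 4 lower, with Dgcr8 of the microprocessor at 0.17 and the Argonaute genes Ago1 and Ago2 at -0.14 and -0.13. On the TPM scale the rises among reported targets numbered 5 and those of the machinery 3, and without withdrawn replicate 1 the falls of the machinery numbered 2, with Ago2 not called (-0.08) there or without no DOX replicate 1 (-0.09).

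The genes that DOX had moved most in this line were found at different distances from their start. Of the 10 with the largest rises, the 3 hairpins were back at or below it. Phlda3 after withdrawal overlapped its libraries without DOX, as did the noncoding RNA Snhg11. Snhg11 went from 12.5, 15.4 and 15.2 CPM with DOX to 3.38, 3.66 and 3.56 against 3.81, 3.59 and 3.55 without. The metalloprotease gene Adam12 stood at 2.64, 3.04 and 2.93 after 9.09, 9.72 and 9.19 with DOX and was not called against its start of 2.33, 2.38 and 2.46 (adjusted p = 0.278 by the same test). The netrin receptor gene Unc5d (0.83), the corepressor gene Hr (0.68), Col11a2 (1.40) and Sct (1.65) were still higher than without DOX. Of the 10 with the largest falls, all stood between their levels with DOX and without, and all were still lower than without DOX. Besides those given above they included Mgst1, a microsomal glutathione transferase, at 1.64, 1.57 and 2.10 CPM with DOX, 6.65, 5.64 and 5.09 after withdrawal and 14.8, 17.1 and 17.5 without, Prelid2 at 3.45, 11.1 and 20.9, and Uap1l1 at 34.9, 117 and 278. Levels after withdrawal ran from 18.1% of no DOX for Blnk to 53.3% for Prelid2.

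Most genes called between withdrawn and never induced cells were also called in the miR-137 line. There 6450 genes (43.4%) were called, 21.6% higher and 21.7% lower. Called in both lines and in the same direction were 4213 genes, 71.2% of the miR-23b line's calls and 65.3% of the miR-137 line's, and 49 were called in opposite directions. Across the 14866 genes the log2 changes of the 2 lines had a Pearson r of 0.715 and a Spearman rho of 0.686, given as a description because genes are not independent. Blnk fell by 2.13 on the log2 scale there and Scd1 by 1.84, and Pdzk1 rose by 2.10 and Gcg by 1.86. The sterol list had 24 of 25 lower there. In the difference 8 members were higher, that is less low in the miR-23b line, and 0 lower. Over all genes 1.76% were higher in the difference and 2.25% lower. Among the 8 were Msmo1 (chosen after its values were seen, difference 0.52) and Fdps (0.39, and 0.36 and not called without miR-137 withdrawn replicate 3).

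The direct test of the difference between the lines called 597 genes, and 50 of the 486 genes that were at least 2-fold apart in the miR-23b line (10.3%) were among them. Besides Ak4, Egln3 and Ldha the lower genes were led by Nr4a1, at 70.2, 72.3 and 60.8 CPM without DOX and 38.8, 45.4 and 38.0 after withdrawal in the miR-137 line (difference -1.21, SE 0.12, adjusted p = 2.31e-08 by edgeR's quasi-likelihood test). Nr4a1 thus fell in both lines and further in the miR-23b line. Igfbp2 did the same (difference -0.97), with 17.3, 17.1 and 14.5 and 8.81, 7.90 and 6.76 in the miR-137 line. Dlk1, an imprinted ligand of the NOTCH family, stood at 5.43, 5.18 and 5.26 and 4.12, 4.77 and 4.26 CPM in the miR-23b line and 4.30, 5.23 and 4.23 and 6.05, 8.62 and 7.76 in the miR-137 line (difference -0.96). On the higher side were Spon2, a matrix protein (difference 0.91), the decoy receptor gene Tnfrsf22 (0.77), Igfbp4 (0.75), the prostaglandin D synthase gene Hpgds (0.74), Ppargc1a (0.74) and Apob, the apolipoprotein of secreted lipid particles (0.68). Apob stood at 143, 138 and 130.4 and 152, 154 and 153 in the miR-23b line and 141, 122 and 144 and 99.7, 88.0 and 95.4 in the miR-137 line, so it rose in the former and fell in the latter. Ppargc1a fell in the miR-23b line from 12.7 to 6.66 and in the miR-137 line from 10.1 to 3.19 CPM. The difference of Tnfrsf22 was not called without miR-137 no DOX replicate 3 or withdrawn replicate 2, or miR-23b no DOX or withdrawn replicate 1 (0.56 to 0.69), and that of Igfbp4 was not called without miR-137 no DOX replicate 1 (0.53) or miR-23b no DOX replicate 2 (0.63). On the TPM scale those 2 and Ppargc1a were not called. Of the ATF4 list 13 of 34 were lower in the difference and 1 higher, beside 2.25% lower and 1.76% higher over all genes. The lower ones numbered 9 on the TPM scale and 9 without miR-23b no DOX replicate 3. Without miR-137 no DOX replicate 3 the test called 387 genes, and on the TPM scale 326, of which 56.4% were higher in place of 43.9%.

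**Figure D5:**
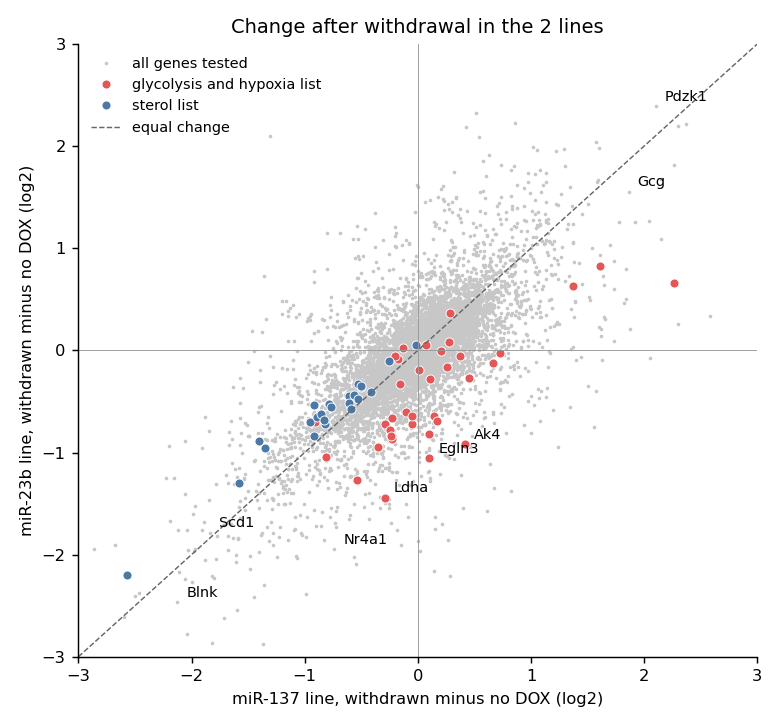
Log2 change between withdrawn and no DOX cultures in the miR-23b line (vertical) against the miR-137 line (horizontal), with 1 point per gene tested and 21 genes outside the axes of -3 to 3. Sterol genes (blue) lie near or above the line of equal change in the lower left, and most glycolysis and hypoxia genes (red) lie below it, Ldha at -1.44 and -0.29.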

How the data were processed

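PolyA RNA was sequenced from 24 libraries, 3 in each of 8 groups. The authors deposited a table of read counts for 46517 gene entries, not normalized, and a second table whose column sums fit TPM. In the submitters' processing notes stand RSEM 1.2.19, STAR 2.4.0g, featureCounts, cutadapt 1.3 and HTSeq 0.6.1, beside GRCm38 and mm10, with no word on which tool made which table. Gene names and 3′ UTRs came from GENCODE M21, and sequences from RefSeq tables of GRCm38.p6.

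The count test was that of edgeR 4.0.16 (R 4.3.3): filterByExpr, TMM, all 24 libraries, 8 group means and a quasi-likelihood F test (16 residual degrees of freedom), with Benjamini-Hochberg adjusted p over 14866 genes. The common coefficient of biological variation was 3.00%. The SE is the log2 fold change over the square root of F, and the pipeline was tested on simulated data. Replicates may share a source, so p-values measure the spread between these libraries, which may be technical. Depth was 15759849 to 24144737 gene counts per library.

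The comparison, the 34 gene lists and the other choices were made with earlier results of these data known. Genes were named by rule: the 15 largest rises and 15 largest falls (called, at least 5 CPM in the higher group, libraries not overlapping, a proper symbol), 6 each way for the difference, 10 each way for induction, up to 3 members each way per list, and the cluster loci, Ins1, Ins2, Ak4, Ldha, Phlda3 and Men1. The planned miR-23b-3p site count was not run, and a few genes that the rule names are not reported here. Alternatives were DESeq2 1.42.0, limma 3.58.1 on log2(TPM + 0.5), RLE factors, other filters, fewer libraries, a replicate block and leaving out each library.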

Additional observations from a re-analysis of the deposited data

Results flagged for a closer look

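The response to withdrawal differed between the miR-23b and miR-137 lines in 597 genes by the test of the difference itself (edgeR's quasi-likelihood test over 14866 genes). Among the genes named above, those lower in the miR-23b line's response, with the log2 difference, were Ak4 (-1.33), Nr4a1 (-1.21), Egln3 (-1.16), Ldha (-1.15), Igfbp2 (-0.97), Dlk1 (-0.96), Itpr2 (-0.79), Egr2 (-0.71), Jcad (-0.66) and Enpp3 (-0.51). Those higher were Spon2 (0.91), Tnfrsf22 (0.77), Igfbp4 (0.75), Hpgds (0.74), Ppargc1a (0.74), Apob (0.68), Serpina1a (0.68), Col11a2 (0.52), Serpina1b (0.44), Fgd4 (0.34) and Ins2 (0.21). The change was called in the same direction in both lines for 16 of these 21 genes, so that the lines differed in its size. Ak4 and Apob were called in opposite directions, Egln3 was called in the miR-23b line and not in the miR-137 line, and Dlk1 and Spon2 the other way round. The difference was not called in 1 or more of the fits with 1 library left out for Egr2 (-0.66 to -0.58), Jcad (-0.60 to -0.52), Enpp3 (-0.50 to -0.40), Serpina1a (0.48 to 0.69), Serpina1b (0.31), Fgd4 (0.29 to 0.32), Tnfrsf22 and Igfbp4, the values being those of the fits without a call. On the TPM scale it was not called for Egr2, Jcad, Enpp3, Itpr2, Fgd4, Tnfrsf22, Igfbp4 and Ppargc1a.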

How the results depend on the processing

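The counts of genes called between withdrawn and no DOX cultures stayed within 1.5 times under every alternative run. In the difference between the lines, limma on the TPM scale called 326 genes (142 lower), of which 238 were among the 597, and its split was 56.4% higher in place of 43.9%. Leaving out 1 library gave 387 to 600 genes for the difference, 166 to 283 higher and 201 to 317 lower. The lowest total came without miR-137 no DOX replicate 3 (387, with 166 higher and 221 lower), and the lower calls also went to 201, 202 and 207 without miR-23b no DOX replicates 1 and 3 and withdrawn replicate 2. The log2 change of Gapdh turned to -0.66 and that of Cox7c to -0.11 on the TPM scale, and the cause was not tested. The replicate block called 2841 genes higher and 3054 lower, and 268 and 343 for the difference. Deviations from the group mean across genes had correlations of 0.00071, 0.0040 and -0.043 between same-numbered libraries. Differently numbered ones had -0.028 to 0.027. Sampling noise can hide a pairing in such values, so they show none by number and cannot exclude it. Of the genes named, the change in the miR-23b line lost its call in 58 fits with 1 library left out and 39 other alternatives (1074 and 1278 stayed on their side of the threshold), and the difference in 64 and 19 (416 and 261 stayed). Depth limits the hairpin loci, which held at most 16 counts in any no DOX or withdrawn library.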
